A study of Sus scrofa with 32 samples.

Results

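The contractile apparatus of smooth muscle was examined through 10 genes, ACTA2, MYH11, MYL9, MYLK, CNN1, TPM2, LMOD1, TAGLN, ACTG2 and DES, which were found by their pig symbols among the 30185 counted NCBI genes. RNA was measured in blood vessels (BV), stroma (S) and the luminal (LE) and glandular (GE) epithelium, all cut by laser capture microdissection from frozen sections of pig endometrium on Day 14. All 8 gilts were prepuberal and had their ovulation synchronised with eCG and then hCG. The 4 pregnant gilts (P139, P39, P41 and P43) were inseminated with semen, and the 4 cyclic gilts (C128, C40, C42 and C78) with semen supernatant of the same boar. A gilt is named by the number in its labels, with P for pregnant and C for cyclic. Each gilt gave 1 library per compartment, so the gilt was the replicate, and 31 libraries were used, since P41 has no GE values here. The pieces of endometrium held no tunica muscularis, the muscle coat of the uterus, and those of pregnant gilts came from the hyperemic zones, where the embryo attaches, after the conceptus had been taken off. Pregnancy, the presence of a conceptus and the choice of the zone therefore cannot be told apart.

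In smooth muscle, calcium bound to calmodulin switches on the myosin light chain kinase, which phosphorylates the regulatory light chain and lets myosin heads pull on actin filaments. Tropomyosin, calponin and leiomodin sit on those filaments, and desmin filaments tie the contractile units together. Around vessels these cells form the media of arteries and arterioles, which sets their diameter and so the blood flow, and pericytes of small vessels carry part of the same genes. Many of these genes are driven by serum response factor with its partner myocardin, which bind a sequence called the CArG box.

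Values are CPM (counts scaled to a common library size) after TMM scaling of all libraries together. Library totals ranged from 2415216 to 7081556 counts, and 11096 genes in BV, 11935 in S, 12002 in LE and 11905 in GE passed the authors' filter on low counts. All 10 genes passed it in BV, 9 in S (not ACTG2), 6 in LE (ACTA2, MYH11, MYL9, MYLK, TPM2 and TAGLN) and 4 in GE (ACTA2, MYH11, MYLK and TPM2). Laser captures hold mixed cells: the BV libraries carried the 18 genes of an endothelial list at a summed 2347 to 4283 CPM, but also the 12 genes of a fibroblast list at 29766 to 99230.1 CPM. In captures of this kind fewer smooth muscle cells and less RNA of these genes per cell cannot be told apart, which holds for all results here.

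The genes lie on 9 chromosomes in the NCBI annotation of Sscrofa11.1, and only ACTG2 and MYH11 share 1, chromosome 3. The upstream stretch of MYL9 is shown as an example of one that holds a CArG box, in capitals. Such a box stood in the 300 bases from 250 before to 50 after the annotated gene start in 1.62% of 30163 counted genes and in 1.47% of the 11092 genes detectable in BV that could be searched. A box was any match of CCWWWWWWGG, with W for A or T. A match of this pattern on 1 strand is also a match on the other, so the search of 1 strand covered both. MYL9 lies at chr17:39788165-39795240 on the plus strand, and its 250 bases before the start are chr17:39787915-39788164.
MYL9: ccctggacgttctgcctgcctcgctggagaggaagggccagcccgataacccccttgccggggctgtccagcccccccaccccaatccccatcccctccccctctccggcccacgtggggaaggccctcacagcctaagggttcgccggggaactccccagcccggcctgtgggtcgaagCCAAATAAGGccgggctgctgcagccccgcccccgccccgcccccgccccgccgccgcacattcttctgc
The MYL9 box begins 70 bases before the start. A match of letters is a description and does not show that the factor acts there.

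All 10 genes had their highest mean in BV in both states. In cyclic gilts their summed level was 11370 ± 6957 CPM in BV (SD, n = 4), 1053 ± 363 CPM in S, 369.9 ± 132 CPM in LE and 82.7 ± 88.1 CPM in GE. In pregnant gilts it was 3466 ± 3115 CPM in BV, 570.4 ± 63.1 CPM in S, 219 ± 28.7 CPM in LE and 47.1 ± 23.6 CPM in GE (n = 3). The rank of the compartments was thus BV, S, LE, GE in both states.

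Levels of different genes were compared per kilobase of merged exons, and this order concerns levels and not differences. Merging joins the exons of all annotated transcripts, 12 for MYLK (9246 bases) and 5 for TPM2. A gene present mainly as a shorter transcript would thus rank too low. In cyclic BV the mean was highest for ACTA2 (2196 CPM per kb), the smooth muscle actin of vessels, followed by TAGLN (799.8), an actin-bundling protein, and MYH11 (568), the smooth muscle myosin heavy chain. The regulatory light chain MYL9 had 381, the visceral actin ACTG2 248, the tropomyosin TPM2 236, the calponin CNN1 172 and the kinase MYLK 137 CPM per kb. The intermediate filament DES, with 41.4, and the leiomodin LMOD1, with 29.9 CPM per kb, closed the order. In pregnant BV ACTA2 (669), TAGLN (241) and MYH11 (152) again led, and ACTG2 stood at 29.7 CPM per kb, just above DES (20.2) and LMOD1 (12.8). Given the spread among gilts described below, neighbours such as ACTG2 and TPM2 in cyclic BV did not differ beyond it.

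**Figure D1:**
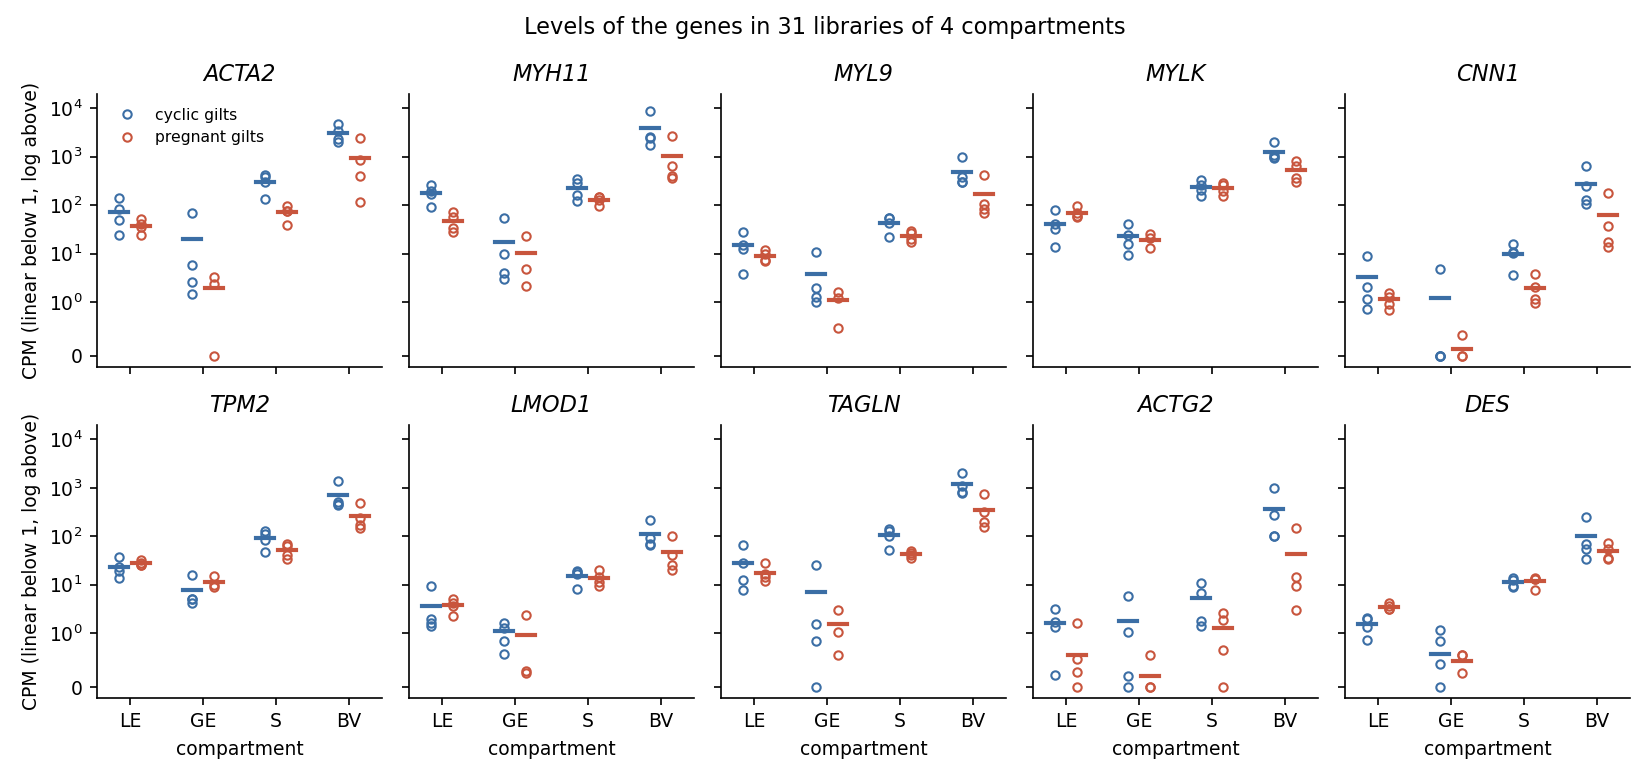
CPM of each gene (vertical axis, linear below 1 and logarithmic above) in LE, GE, S and BV of cyclic (blue) and pregnant (red) gilts, 1 open circle per library and a bar at the group mean. In every panel BV holds the highest means, S comes next, and in all panels but that of DES the lowest pregnant BV circle lies below every cyclic one.

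The first question was how firmly these genes mark the vessel captures, which was tested by BV minus S, LE or GE within gilts in 1 joint fit of 13887 genes (edgeR quasi-likelihood F test, gilt as block, with calls made at 1% false discovery rate). In cyclic gilts, 9 of the 10 genes were called higher in BV than in S, where 2.01% of all genes were called higher, and the groups did not overlap for any of the 10 (7.86% of all genes were higher without overlap). The difference was 5.90 ± 0.96 (SE) on the log2 scale for ACTG2, 4.83 ± 0.77 for CNN1, 3.95 ± 0.73 for MYH11 and 2.54 ± 0.41 for MYLK, and the median of the 10 was 3.57, against -0.02 for all genes. ACTA2 differed by 3.59 ± 0.88 and was not called (adjusted p = 0.0136 by the edgeR quasi-likelihood F test). The count moved with cyclic gilt C78: without its BV library 5 genes were called (CNN1, TPM2, ACTG2, MYLK and DES), where 0.749% of all genes were called higher, and the median was 2.81.

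In pregnant gilts none of the 10 genes was called between BV and S (edgeR quasi-likelihood F test), where 0.101% of all genes were called in either direction, 0.0504% higher. All 10 were higher in BV at an unadjusted p under 0.05, as were 7.47% of all genes, 9 did not overlap (all but LMOD1, against 3.85% of all genes), and DESeq2 called 4 (CNN1, MYL9, TPM2 and DES, against 0.843%). The median log2 difference was 2.51, with 4.61 ± 0.92 for CNN1, 2.02 ± 0.40 for DES and 1.18 ± 0.40 for MYLK. Against both epithelia all 10 genes were called higher in BV in both states. The background there was large, with 18.3% of all genes called higher than in LE and 26.6% higher than in GE in cyclic gilts, and 13.9% and 20.7% in pregnant gilts. The median differences were 5.31 from LE and 7.22 from GE in cyclic gilts, and 3.97 and 6.98 in pregnant gilts, on the log2 scale.

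**Figure D2:**
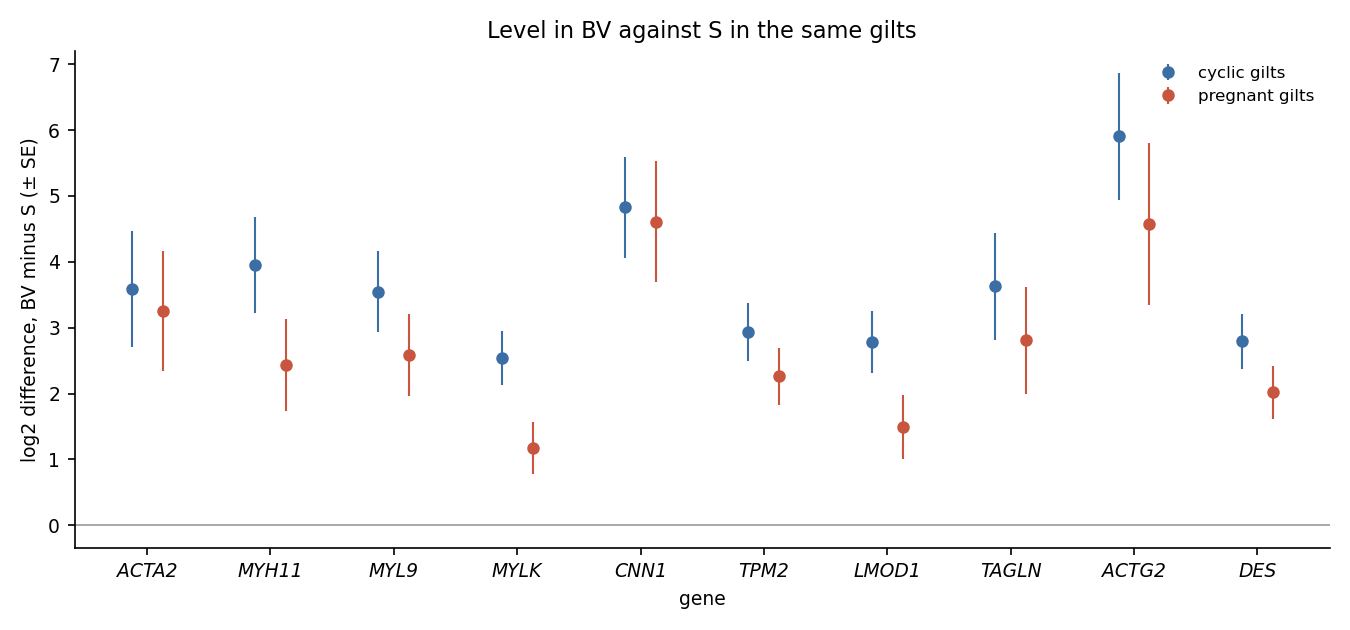
Log2 difference of each gene between BV and S (vertical axis) in cyclic (blue) and pregnant (red) gilts, with bars of 1 SE from the joint fit. All points lie above 0, from 1.18 to 5.90, and the red point of each gene lies below the blue one.

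Within BV the gilts differed widely, and the values of every gilt are given by role, cyclic gilts C128, C40, C42 and C78 first and pregnant gilts P139, P39, P41 and P43 second. ACTA2, which forms the thin filaments of vascular muscle, had 2014, 2325, 3386 and 4599 CPM in cyclic BV and 2401, 114, 837 and 402 CPM in pregnant BV. MYH11, the motor of the thick filaments, had 2489, 1696, 2443 and 8603 CPM and then 2679, 368, 641 and 391 CPM. For both genes pregnant gilt P139 stood within the cyclic range, and the other 3 pregnant gilts lay below every cyclic gilt.

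MYL9, the light chain whose phosphorylation starts contraction, had 299.9, 293, 386 and 959.5 CPM in cyclic BV and 418, 67.1, 106 and 81.3 CPM in pregnant BV. MYLK, which encodes the kinase of that light chain, had 944, 997, 1088 and 2028 CPM and then 799, 354, 633 and 296 CPM. Here the groups did not overlap for MYLK, since gilt P139 also lay below the lowest cyclic gilt, while for MYL9 it exceeded 3 of the 4 cyclic gilts.

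CNN1, calponin, which damps the actin-activated myosin ATPase, had 124, 107, 247 and 628 CPM in cyclic BV and 179.7, 13.6, 36.8 and 17.4 CPM in pregnant BV. TPM2, a tropomyosin that lies along the thin filament, had 442, 459, 517 and 1361 CPM and then 491, 151, 233 and 170.3 CPM. LMOD1, which nucleates actin filaments, had 90.4, 66.2, 67.6 and 213 CPM and then 100.2, 25.8, 40.6 and 20.0 CPM. The 3 genes of the thin filament shared the pattern of ACTA2, with gilt P139 inside the cyclic range.

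TAGLN, transgelin, had 763, 827, 1112 and 2027 CPM in cyclic BV and 752, 153, 321 and 196 CPM in pregnant BV, so that gilt P139 lay just under the lowest cyclic gilt and the groups did not overlap. ACTG2, the actin of visceral and uterine muscle, had 102, 102, 279 and 988 CPM and then 149, 3.03, 14.2 and 9.28 CPM. DES, desmin, had 34.3, 53.6, 68.7 and 248 CPM and then 55.4, 71.2, 36.4 and 34.5 CPM. DES departed from the rest: its highest pregnant value was that of gilt P39, which was the lowest pregnant gilt for ACTA2 and ACTG2 and all its pregnant values but that one lay within the 34.3 to 68.7 CPM of cyclic gilts C128, C40 and C42.

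**Figure D3:**
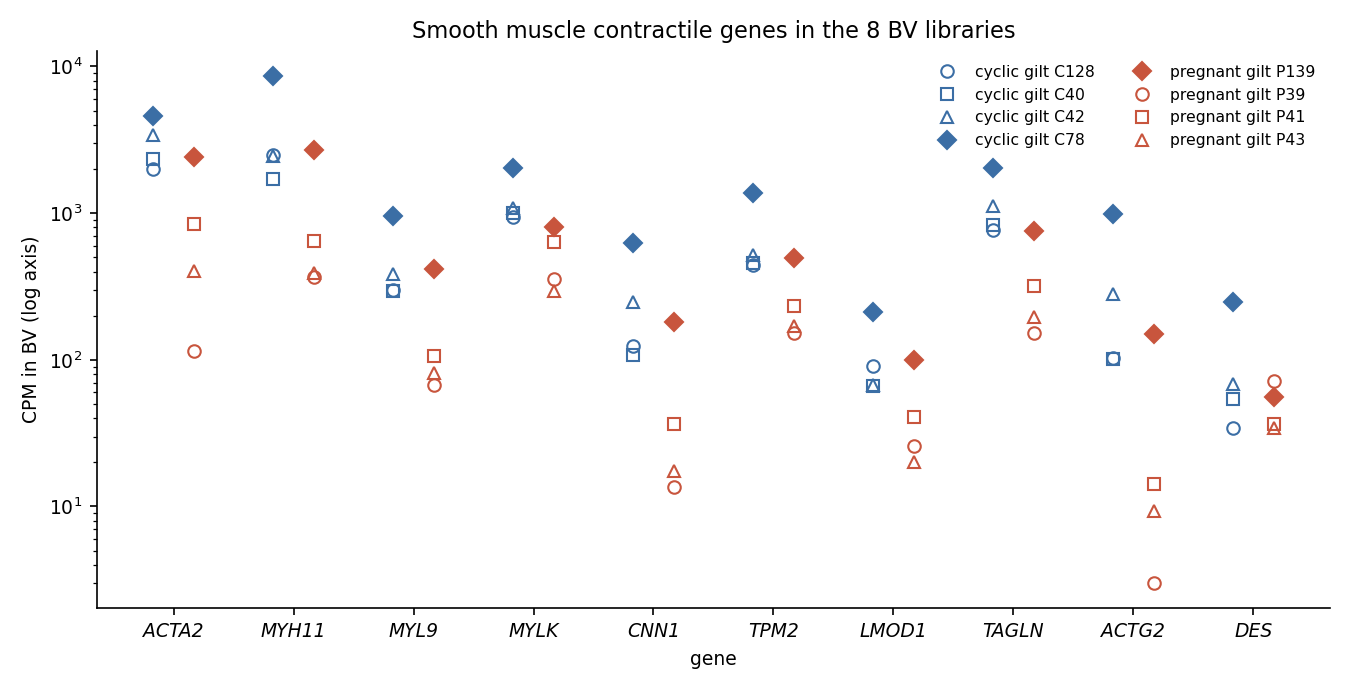
CPM in BV (vertical axis, logarithmic) of each gene in the 4 cyclic (blue) and 4 pregnant (red) gilts, 1 symbol per library, with cyclic gilt C78 and pregnant gilt P139 filled. The filled blue diamond is the highest point for all 10 genes, the filled red diamond is the highest red point for all but DES, and the open red points lie below the blue ones for the same 9 genes.

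The pregnancy comparison in BV asked whether these genes differed between pregnant and cyclic gilts. None of the 10 was called in BV (edgeR quasi-likelihood F test, unadjusted p no larger than 0.000328, the largest called in LE), where 1.86% of all genes were called in either direction and 0.559% lower. All 10 fitted differences were negative, 8 had an unadjusted p under 0.05 (14.1% of all genes did so in the lower direction), and 2, MYLK and TAGLN, did not overlap between groups (9.54% of all genes were lower without overlap). The median log2 fold change was -1.61, against 0.00 for all genes tested, and the edgeR adjusted p ran from 0.0595 to 0.271.

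By size, ACTG2 had -3.07 ± 1.16 (SE) on the log2 scale, an 8.37-fold lower level, CNN1 -2.16 ± 0.87 and MYH11 -1.89 ± 0.75. TAGLN had -1.72 ± 0.52, ACTA2 -1.70 ± 0.74, MYL9 -1.52 ± 0.63, TPM2 -1.40 ± 0.48, MYLK -1.27 ± 0.36, LMOD1 -1.22 ± 0.55 and DES -1.02 ± 0.57. The smallest adjusted p belonged to MYLK (0.0595) and TAGLN (0.0673) by the edgeR quasi-likelihood F test, which have smaller fold changes but also smaller errors than ACTG2. The tool mattered. The edgeR GLM with robust dispersions, the fit named in the study's methods, gives less weight to a library that stands apart. It called 9 genes (all but DES) where it called 5.23% of all genes lower. DESeq2, which gave MYL9 no p, called 2 (TAGLN and MYLK) where it called 3.77% lower.

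The size of these differences moved with a single library in each group. Pregnant gilt P139 was the highest pregnant gilt for 9 of 10 genes and had 1.17 (DES) to 16.9 (ACTG2) times the mean of the other 3, with a median of 4.21. It stood within the cyclic range for 8 genes, while the other 3 pregnant gilts were all below the lowest cyclic gilt for 9 genes. Cyclic gilt C78 was the highest cyclic gilt for all 10 genes, at 1.79 (ACTA2) to 6.14 (ACTG2) times the mean of the other 3, with a median of 2.91.

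Without pregnant gilt P139, MYL9 and TAGLN were called lower (1.06% of all genes were), and the median fell to -2.45 on the log2 scale, with ACTG2 at -5.36 ± 1.01, CNN1 at -3.60 ± 0.70 and MYH11 at -3.02 ± 0.58. Without cyclic gilt C78 none was called (edgeR quasi-likelihood F test), 2 had an unadjusted p under 0.05, the median was -1.02, and DES came to -0.07. With both left out, an alternative chosen after the data had been seen, 6 genes were called lower (MYH11, TAGLN, CNN1, MYL9, TPM2 and ACTG2), where 1.68% of all genes were, the median was -1.97 and DES stood at -0.13.

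**Figure D4:**
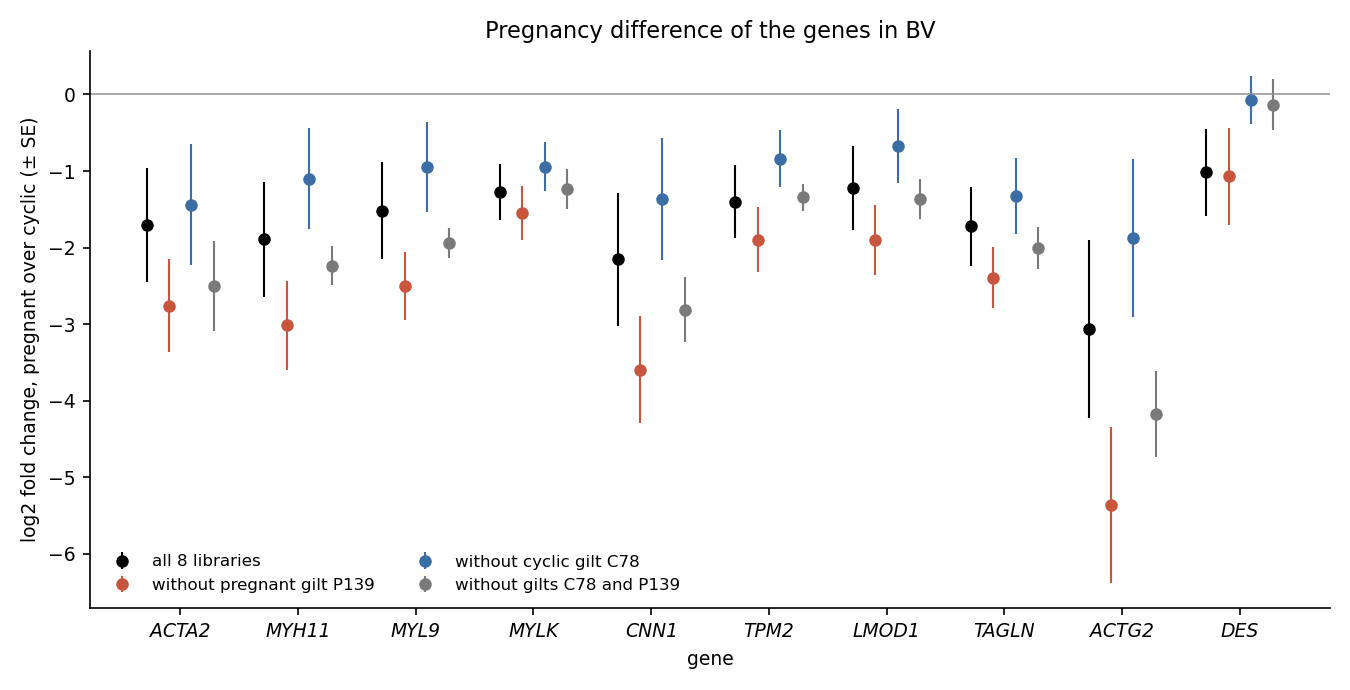
Log2 fold change of each gene in BV, pregnant over cyclic (vertical axis), with bars of 1 SE, from all 8 libraries (black), without pregnant gilt P139 (red), without cyclic gilt C78 (blue) and without both (grey). For 9 genes all 4 points lie at -0.67 or lower, whereas for DES the points without gilt C78 lie close to 0.

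How often the same gilts were highest differed between compartments. Gilt C78 was the highest cyclic gilt for 3 of the 10 genes in S, 2 in LE and 0 in GE. Gilt P139 was the highest pregnant gilt for 4 in S, 2 in LE and 8 in GE. Pregnant GE had only 3 libraries, and 4 of the 10 genes passed the filter in GE, so its count is not like the others. Within gilts, the summed level in BV was 5.18 (C128), 6.57 (C40), 17.3 (C42) and 18.1 (C78) times that in S in cyclic gilts, and 14.9 (P139), 2.04 (P39), 5.75 (P41) and 2.74 (P43) times in pregnant gilts. The ratio was lowest in pregnant gilt P39 and highest in cyclic gilt C78.

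The spread among gilts was wide beside that of other genes in BV. Among pregnant gilts the median SD of log2(CPM + 1) over the 10 genes was 1.10, against 0.283 for all 11096 genes, and 3.06% of these had an SD as high. Among cyclic gilts it was 0.793, against 0.277, with 6.32% of genes as high. The highest pregnant gilt had 49.2 times the level of the lowest for ACTG2, 21.0 times for ACTA2, 13.2 times for CNN1 and 7.28 times for MYH11, but 2.69 times for MYLK and 2.06 times for DES. Among cyclic gilts these ratios were 9.72 for ACTG2, 2.28 for ACTA2, 5.85 for CNN1, 5.07 for MYH11, 2.15 for MYLK and 7.22 for DES. ACTA2 was thus among the steadier of the 10 genes in cyclic BV and, after ACTG2, the most variable in pregnant BV, while DES went the other way. These spreads are a description over 4 gilts a group.

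In stroma, 1 of the 9 genes tested was called lower in pregnant gilts, ACTA2, where 0.109% of all genes were called lower. ACTA2 had 416, 371, 131 and 304 CPM in cyclic S (gilts C128, C40, C42 and C78) and 96.8, 74.4, 38.0 and 74.2 CPM in pregnant S (gilts P139, P39, P41 and P43), with no overlap. Its log2 fold change was -2.10 ± 0.38, a 4.30-fold lower level (unadjusted p = 2.7e-04, adjusted p = 0.104, edgeR quasi-likelihood F test). The call rested on the full set of libraries: it was lost when any 1 of them other than S of cyclic gilt C42 was left out, with an unadjusted p of up to 0.00148 by the same edgeR test and a fold change of -1.90 or lower.

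TAGLN in S had 141, 102, 52.9 and 131 CPM in cyclic gilts and 45.4, 41.8, 36.0 and 49.7 CPM in pregnant gilts, likewise without overlap (5.19% of all genes were lower without overlap), at -1.30 ± 0.28 on the log2 scale (adjusted p = 0.112, edgeR quasi-likelihood F test). CNN1, at 15.7, 10.1, 3.65 and 10.6 CPM against 3.74, 1.14, 0.983 and 2.04 CPM, had -2.28 ± 0.53 and overlapped by a single pair of gilts. MYL9 (-0.89 ± 0.30), TPM2 (-0.82 ± 0.32) and MYH11 (-0.82 ± 0.31) were negative too. MYLK (-0.08 ± 0.27), LMOD1 (-0.17 ± 0.32) and DES (0.11 ± 0.26) lay near 0.

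In all, 8 of the 9 differences in S were negative, with a median of -0.82 against 0.00 for all genes, and 6 had an unadjusted p under 0.05 (7.05% of all genes in the lower direction). Robust dispersions gave 4 calls (ACTA2, TAGLN, CNN1 and MYL9, against 1.20% of all genes lower) and DESeq2 gave 3 (ACTA2, TAGLN and CNN1, against 1.21%). ACTG2 did not pass the filter in S and was at 18 counts over all pregnant S libraries and 106 over all cyclic ones. The pregnant S libraries were close to each other, with a summed level of 504 to 649 CPM, while the cyclic ones ran from 554 (gilt C42) to 1409.7 CPM (gilt C128). In the same comparison in S, all 11 epithelial genes tested and 16 of 18 endothelial genes were positive, with medians of 1.46 and 0.39 on the log2 scale, and none was called (edgeR quasi-likelihood F test), while 3 epithelial and 0 endothelial genes had an unadjusted p under 0.05 in this direction (7.49% of all genes did). The 14 epithelial genes summed to 12.03 to 214 CPM in cyclic S and 46.7 to 614 CPM in pregnant S, and the endothelial genes to 984 to 2831 and 1366 to 4242 CPM, so that both ranges overlapped. Their part in the differences in S was not tested.

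In the epithelia these genes were low. In LE none of the 6 genes tested was called with 1% false discovery (3.32% of all genes were, edgeR quasi-likelihood F test), and 1 had an unadjusted p under 0.05, MYH11 (13.0% of all genes did so in the lower direction). It had 167, 91.1, 198 and 259 CPM in cyclic LE and 72.2, 57.9, 27.4 and 33.0 CPM in pregnant LE, without overlap (9.12% of all genes were lower without overlap), at -1.90 ± 0.41 on the log2 scale (adjusted p = 0.0195, edgeR quasi-likelihood F test), and both DESeq2 and the robust fit called it (4.72% and 4.77% of all genes lower).

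MYH11 did not run with the other genes there. In cyclic LE of gilt C78 it was at its highest, at 259 CPM, while ACTA2 had 23.9, TAGLN 7.96 and MYL9 3.87 CPM, the lowest of the cyclic gilts for each. Per kilobase, MYH11 was 2.27 times ACTA2 in that library, against 0.251 to 0.511 times in the other cyclic LE libraries. MYLK (0.79 ± 0.43) and TPM2 (0.25 ± 0.27) had positive fold changes in LE, and ACTA2 (-0.93 ± 0.46), MYL9 (-0.68 ± 0.48) and TAGLN (-0.63 ± 0.59) negative ones, none of which passed the test.

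In GE none of the 4 genes tested was called (0.748% of all genes were, edgeR quasi-likelihood F test) and none had an unadjusted p under 0.05. Cyclic gilt C40 decided the values of ACTA2 and MYH11 there, but not those of MYLK. It had 68.9 CPM of ACTA2 against 1.48 to 5.83 CPM in the other 3 cyclic gilts, and 53.5 CPM of MYH11 against 3.03 to 9.75 CPM. The ACTA2 fold change of -3.30 ± 1.55 in GE became -0.75 without that library, and that of MYH11 went from -0.76 to 0.87. MYLK had 9.49 to 40.2 CPM in cyclic GE and 13.1 to 24.8 CPM in pregnant GE (-0.20 ± 0.46), and TPM2 4.24 to 16.1 CPM and 8.91 to 15 CPM (0.56 ± 0.50).

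Whether pregnancy moved the genes more in BV than in S was tested by the interaction of the joint fit. None of the 10 genes was called (edgeR quasi-likelihood F test), and neither was any of all 13887 genes (0.0%). All 10 contrasts were negative, and MYLK alone had an unadjusted p under 0.05, as did 2.01% of all genes in the lower direction. Its contrast was -1.37 ± 0.56 on the log2 scale, with an adjusted p of 1.0 by the edgeR quasi-likelihood F test. LMOD1 (-1.30 ± 0.66) and MYH11 (-1.52 ± 0.94) had the next smallest p, and CNN1 (-0.22 ± 1.35) and ACTA2 (-0.34 ± 1.17) were near 0 with wide errors. Without BV of cyclic gilt C78 the contrast was negative for 8 genes, and ACTA2 and CNN1 turned positive (0.42 and 0.59). The test over all 4 compartments called none of the 10 either (1.94% of all genes, edgeR quasi-likelihood F test), with the smallest adjusted p for MYLK (0.0760) and TPM2 (0.131). The absence of a call does not show that the genes moved alike in BV and S.

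Other genes of the smooth muscle cytoskeleton and of contraction signalling were taken from lists of 20 genes each. In cyclic gilts 12 of the 20 cytoskeletal genes were called higher in BV than in S, where 2.01% of all genes were called higher, among them NEXN, which binds actin filaments (4.31 ± 0.60), the intermediate filament SYNM (3.34 ± 0.53), FLNA, which crosslinks actin (2.19 ± 0.44), and TPM1 (2.07 ± 0.31). The others called were CALD1, CSRP1, PDLIM3, PDLIM7, VCL, MYL6, LPP and FHL1. Of the 20 signalling genes 7 were called higher (against the same 2.01%), among them PLN, a regulator of the calcium pump (3.57 ± 0.60), PRKG1, the kinase by which nitric oxide relaxes muscle (2.62 ± 0.37), and its upstream cyclase subunit GUCY1A3 (2.13 ± 0.37). ROCK1, ROCK2, PPP1R12B and KCNMB1, the beta subunit of the calcium-activated potassium channel, completed them.

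In the pregnancy comparison in BV none of the genes of either list was called (edgeR quasi-likelihood F test). The calls of DESeq2 and of the robust GLM for these lists are not given here. By its own procedure the study named KCNMB1 as differentially expressed specifically in BV. It also found the categories myofibril and actin filament-based process among genes decreased in BV. Of the cytoskeletal genes, 19 of 20 were negative, 12 with an unadjusted p under 0.05 (14.1% of all genes did so in the lower direction), and the median was -0.997. NEXN had 98.5 to 378 CPM in cyclic and 25.8 to 172 CPM in pregnant BV (-1.57), LPP -1.28 ± 0.33 with no overlap, FLNA -1.31 ± 0.55 and CALD1 -0.82 ± 0.28. Of the signalling genes, 18 of 20 were negative, 7 with an unadjusted p under 0.05 (against the same 14.1%), and the median was -0.56. PPP1CB, the catalytic subunit of the myosin phosphatase, had -0.60 ± 0.12 and no overlap, ROCK2 -0.42 ± 0.17 and RHOA, the GTPase that activates this kinase, -0.29 ± 0.14. The median in both lists was thus closer to 0 than the -1.61 of the 10 contractile genes. In S the medians were -0.27 for the cytoskeletal and -0.21 for the signalling list, again with no call.

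A list of 16 transcriptional regulators of smooth muscle was examined in the same way. Of these, 2 were called higher in BV than in S in cyclic gilts (2.01% of all genes were), MYOCD, the cofactor of serum response factor (3.47 ± 0.65), and the Notch ligand JAG1 (1.88 ± 0.35). In BV of pregnant against cyclic gilts none was called (edgeR quasi-likelihood F test), 10 were negative and 6 positive, 2 of each had an unadjusted p under 0.05 (14.1% of all genes lower and 14.4% higher), and the median was -0.12. MYOCD ran from 15.9 to 54.4 CPM in cyclic BV and from 4.21 to 25.8 CPM in pregnant BV. NOTCH3, a receptor of mural cells, had -0.14 ± 0.24, JAG1 -0.44 ± 0.25 and MKL2, a relative of MYOCD, 0.41 ± 0.29.

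Markers of other cells were compared between pregnant and cyclic BV, where 1.30% of all genes were called higher. At an unadjusted p under 0.05 (edgeR quasi-likelihood F test), 14.1% of all genes were lower and 14.4% higher. Of 9 pericyte genes tested none was called in BV (edgeR quasi-likelihood F test), 1 was higher and 2 were lower at an unadjusted p under 0.05 and the median was -0.14, with RGS5 at -0.43 ± 0.73 and PDGFRB, the receptor that recruits mural cells, at 0.71 ± 0.19. Of 18 endothelial genes, 14 were positive, and the median was 0.24. At an unadjusted p under 0.05, 4 were higher and 1 was lower. The 2 called higher in pregnant BV were TIE1 (1.07 ± 0.14) and SOX17 (1.44 ± 0.20). In both states the difference of BV from LE and from GE was positive for 17 of the 18, and 1 was lower in each comparison. Called higher than in LE were 10 in cyclic gilts (18.3% of all genes) and 6 in pregnant gilts (13.9%). Called higher than in GE were 17 in both states (26.6% and 20.7% of all genes). Not every gene of the list thus marked vessels over epithelium. The endothelial genes with the highest levels in BV were not called, with VWF at 0.39 ± 0.32, MMRN2 at -0.09 ± 0.36 and PECAM1 at -0.53 ± 0.22. Of 10 epithelial genes tested all were positive, each at an unadjusted p under 0.05, and the median was 3.20. The 3 called higher were CDH1 (3.77 ± 0.44), CLDN3 (3.34 ± 0.57) and GRHL2 (3.27 ± 0.55). EPCAM had 3.18 ± 0.70 and KRT8 2.16 ± 0.53. The fibroblast list (median -0.21, 12 genes) held no call (edgeR quasi-likelihood F test) and 3 lower genes at an unadjusted p under 0.05, with the collagen genes COL3A1 at -0.22 ± 0.45, COL1A2 at -0.68 ± 0.41 and COL1A1 at -0.12 ± 0.38. The leukocyte list (median 0.63, 7 genes) held none either by the same edgeR test and 2 higher genes at an unadjusted p under 0.05, with PTPRC at 0.06 ± 0.45, CSF1R at 0.71 ± 0.27 and CD163 at 0.32 ± 0.46.

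By library, the 14 epithelial genes summed to 3.97 to 64.1 CPM in cyclic BV and 211 to 399.7 CPM in pregnant BV, where gilt P139 was the highest. In LE the same list summed to 3152 to 3903 CPM. The fit was repeated without the 756 genes whose level in cyclic LE or GE exceeded that in BV by 4-fold or more. None of the 10 contractile genes was called (edgeR quasi-likelihood F test) and the median was -1.57. That step left the counts of the 10 genes as they were and acted only through scaling and dispersion. It therefore cannot measure the part of epithelial cells in the captures. The fibroblast sums were lowest in gilts C78 and P139, which had the highest contractile sum of the cyclic and of the pregnant gilts, at 29766 and 33759 CPM, against 49257 to 99230.1 CPM in the other 6. Gilt C42, whose contractile sum of 9595 CPM exceeded the 8025 CPM of gilt P139, had a fibroblast sum of 72033 CPM. The leukocyte sums were also lowest in gilts C78 and P139, at 180.2 CPM in gilt C78 and 124 CPM in gilt P139, against 249 to 462 CPM in the others. These low sums were not confined to BV. In S the fibroblast sums were 42512 (C78) and 44790 CPM (P139), against 69934 to 112852 CPM in the others. They were lowest in the same gilts in LE and GE too. The leukocyte sums in S were again lowest there, at 203 (C78) and 320 CPM (P139). The contractile sums in S were instead highest in gilts C128 and P39. The part of these differences in makeup in the pregnancy comparison was not tested.

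Set against the endothelial list, the summed level of the 10 genes was 3.11 (gilt C128), 1.76 (C40), 2.60 (C42) and 5.59 (C78) times the summed endothelial level in cyclic BV. In pregnant BV it was 2.99 (P139), 0.310 (P39), 0.677 (P41) and 0.379 (P43) times. The endothelial sums of pregnant gilts P39, P41 and P43, at 4266, 4283 and 4266 CPM, were higher than those of all cyclic gilts, whereas that of gilt P139 was 2679.7 CPM. In S the ratio was 0.422 to 0.753 in cyclic and 0.127 to 0.475 in pregnant gilts. Of the 18 endothelial genes, 16 were positive for BV minus S in cyclic gilts and 18 in pregnant gilts. Only 1 was called higher in cyclic gilts (2.01% of all genes) and 0 in pregnant gilts (0.0504%). The list also summed to 398 to 1539 CPM in cyclic LE and 714 to 1696 CPM in pregnant LE. The ratio thus cannot be read as muscle per vessel lining.

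**Figure D5:**
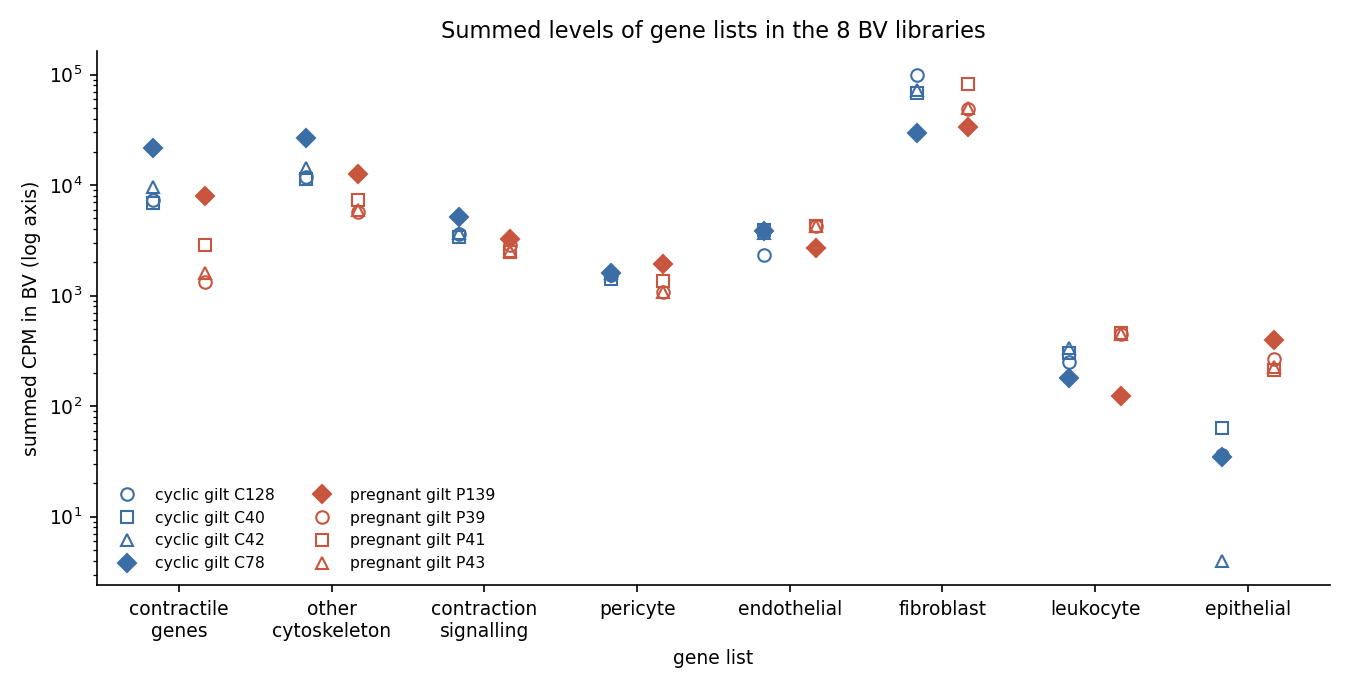
Summed CPM in BV (vertical axis, logarithmic) of 8 gene lists in the 4 cyclic (blue) and 4 pregnant (red) gilts, 1 symbol per library, with cyclic gilt C78 and pregnant gilt P139 filled. The contractile sums run from 1322 to 21654 CPM, the pericyte sums from 1072 to 1956 CPM and the endothelial sums from 2347 to 4283 CPM, and the epithelial sums of all pregnant gilts lie above those of all cyclic gilts.

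The genes ran together over the libraries. Over all 31 libraries, each of the 10 had a Pearson r of 0.883 (ACTG2) to 0.992 (MYL9) with the mean log2 level of the other 9, values that also carry the compartment. After the mean of each compartment and state was taken off, r was highest for TPM2 (0.946), MYL9 (0.930) and CNN1 (0.908) and lowest for MYLK (0.631) and DES (0.408). Of the genes outside the list, NEXN (r = 0.978), FLNA (0.965), LPP (0.962), MSRB3 (0.962) and TGFB3 (0.961) were most like their mean over all libraries. With the group means off these were NEXN (0.894), FLNA (0.872), IGF2 (0.772), TGFB3 (0.767) and GPC6 (0.766). The libraries share gilts and captures, so these values are descriptions.

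Related sequences could in part share reads. The coding sequences of ACTA2 and ACTG2 were 84.5% identical, with a longest identical run of 35 bases, and the cytoplasmic actin ACTB shared a run of 53 bases with ACTA2. Reads that fall in such stretches may be assigned to either gene. ACTB itself had -0.66 ± 0.24 and ACTG1 -0.12 ± 0.22 on the log2 scale in BV of pregnant against cyclic gilts, neither called. MYLK shares 130 exon bases with LOC102157484 on the opposite strand, and the strand setting of the counting is not given in the sources used here. The exons of the other 9 genes overlap no other annotated exon.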

How the data were processed

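Counts of 31 libraries were used. By their methods, the authors used Trim Galore for trimming, Hisat2 for alignment of the single reads to Sscrofa11.1, nudup against PCR duplicates and QuasR for counts over NCBI genes, and deposited whole-number counts in full tables and in tables filtered by a CPM limit. Versions and that limit are not given in the sources used here. The libraries were amplified from picograms of RNA, so the depth of 2415216 to 7081556 counts covers counting error only.

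Pregnant and cyclic libraries were compared per compartment on the filtered counts with edgeR 4.0.16 (R 4.3.3), using TMM, its quasi-likelihood F test and Benjamini-Hochberg adjustment. In LE a 1% false discovery rate made a call, and elsewhere a p no larger than the largest called there. This rule was taken from the study's methods, which applied it to edgeR's GLM with robust dispersions. That fit stands among the alternatives here, so calls of the main test are not those of the study's procedure. Compartments were compared in a joint fit with the gilt as block. The pairing comes from the same animal, and same-gilt deviations had a median r of 0.128 to 0.222 per pair of compartments, with 1 gilt at -0.163. Standard errors were derived from the coefficient and its F statistic. Fits were tested on simulated data.

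Alternatives were DESeq2 1.42.0, edgeR's GLM with robust dispersions, other scalings and filters, and each library left out. Members and lists were chosen with earlier results of these data known. Named are all 10 members, in each list the genes called in the comparisons described and the 3 highest in BV, and the 5 genes most like the members. In the lists, 5 genes were matched by an older symbol, and COX4I2 was not matched. The upstream sequences of members other than MYL9 are not reported here.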

Additional observations from a re-analysis of the deposited data

Results flagged for a closer look

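In each group of 4 gilts the highest and the lowest library were checked by Dixon's test, which sets the gap to the next library against the range of the group. Of 70 groups of a gene, compartment and state, 18 were marked, each for its highest library. The test was made on CPM and not on a log scale, so a high library is marked more readily than a low one. Its nominal rate of 1 in 20 holds for normally distributed values, and the 18 marks cannot be set against it. The 10 genes share their libraries, so these marks are not independent.

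In cyclic BV gilt C78 was marked for 6 genes. It had 8603 CPM of MYH11 against 2489 in the next gilt, 2028 of MYLK against 1088, 1361 of TPM2 against 517, 959.5 of MYL9 against 386, 248 of DES against 68.7 and 213 of LMOD1 against 90.4. In pregnant BV gilt P139 was marked for 4 genes, with 2679 CPM of MYH11 against 641, 418 of MYL9 against 106, 179.7 of CNN1 against 36.8 and 149 of ACTG2 against 14.2.

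In cyclic GE gilt C40 was marked for 6 genes. It had 68.9 CPM of ACTA2 against 5.83 in the next gilt, 53.5 of MYH11 against 9.75, 25.4 of TAGLN against 1.51, 16.1 of TPM2 against 5.19, 10.6 of MYL9 against 1.94 and 4.84 of CNN1, of which the other 3 cyclic GE libraries held no count. In cyclic LE gilt C128 had 8.83 CPM of CNN1 against 2.05 and 9.37 of LMOD1 against 1.97. What set these libraries apart was not tested.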

How the results depend on the processing

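The number of genes called depended on the tool. In BV of pregnant against cyclic gilts edgeR's quasi-likelihood test called 0 of 10 genes (8 at an unadjusted p under 0.05), DESeq2 2, the robust GLM 9, and the fit without gilts C78 and P139, chosen after the data had been seen, 6. In S these were 1 for the main test, 3 for DESeq2, 4 for the robust GLM and 0 when false discovery was held to 5%. DESeq2, the robust GLM, no filter and 5% false discovery each called 1 gene in LE against 0. For BV minus S in pregnant gilts no filter gave 3 and DESeq2 4 (where it called 0.843% of all genes higher), against 0. With 1 library left out, the calls ran from 0 to 2 in BV, 0 to 2 in S, 5 to 10 for BV minus S in cyclic gilts, 0 to 2 for it in pregnant gilts and 9 to 10 against LE and GE in pregnant gilts. The cause was not tested. For no filter, 5% false discovery, no replicate block and most left-out libraries, the share of all genes called is not given here. Counts under those settings therefore cannot be judged against such a share.

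With no replicate block for the gilt, 9 genes were called for BV minus S in cyclic gilts, 0 in pregnant gilts and 10 against LE and GE, as with the block, and in the interaction ACTA2 (0.39) and CNN1 (0.11) turned positive. Other reversals came from leaving out 1 library, and the log2 values then ran from -1.21 to 0.42 for ACTA2 and from -0.998 to 0.59 for CNN1 in the interaction, highest without cyclic BV C78 and lowest without pregnant BV P139. Without 1 library TAGLN in LE ran from -0.93 to 0.17 (positive without C128), MYH11 in GE from -2.35 to 0.87 (positive without C40), MYLK in GE from -0.44 to 0.23 (positive without C128 or P43) and MYLK in S from -0.22 to 0.13 (positive without C128 or P139). None of the 16 reversed values had been called. The median SD among pregnant BV libraries stayed between 1.10 and 1.11 under other pseudocounts and scalings.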
